A study of Homo sapiens with 6 samples.

Results

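The antisense RNAs that Hep-G2 cells expressed are described here with the genes on the opposite DNA strand. Hep-G2 is an established human liver cancer cell line. Its messenger RNA was sequenced after lentiviral delivery of a short hairpin that targets CLGN (sh-CLGN, 3 libraries, genotype given as CLGN knock down) or of a control hairpin (sh-NC, 3 libraries, genotype given as WT). The CLGN product, calmegin, helps proteins fold in the endoplasmic reticulum. All 6 libraries came from cells screened with puromycin and carried the same batch label. Each group carried 1 hairpin, so an effect of that hairpin or culture and the loss of CLGN cannot be told apart. An antisense RNA was included when the table gave it the antisense biotype and at least 2 FPKM in at least 3 of the 6 libraries. FPKM is the fragment count divided by the length of the gene and the size of the library. Of 58735 listed genes, 5583 had that biotype, 204 of these reached the level, and SNHG7, SNHG10, SNHG12 and ZFAS1, hosts of small nucleolar RNAs, were left out by name. This left 200 antisense RNAs, of which 130 had clone-based names, 57 were named after a gene with the ending AS or AS and a number, and 4 had the ending DT for a divergent transcript.

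Antisense RNAs are transcribed from the strand opposite to another gene. Many start close to the promoter of a protein-coding gene and run away from it, since open promoters often fire in both directions, and others start inside a gene or run into its end. Many stay in the nucleus and are present in few copies per cell. The nuclear RNA exosome removes many of them soon after synthesis, guided by adaptor complexes such as NEXT, PAXT and the restrictor of ZC3H4 and WDR82. Some antisense RNAs act on the gene they overlap, while for most no function is known.

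By position, 161 of the 200 antisense RNAs overlapped at least 1 opposite-strand gene, and 44 overlapped 2 or more. The partner was taken as the protein-coding gene with the longest overlap, or any gene where none was protein-coding, which gave 156 distinct partners. Of the 161 antisense RNAs, 153 had a protein-coding one. Another 24 overlapped nothing but had an opposite-strand gene that started within 1000 bases of their own start, here called the neighbour, and 15 had neither. In 17 cases the annotated start of the antisense RNA fell inside the promoter window of its partner or neighbour, taken from 250 bases before to 50 bases after the start of the gene in RefSeq (GRCh38.p14). RefSeq windows were matched by symbol for 132 of the partners and neighbours and for 52 of the antisense RNAs. In each of the 17 cases the antisense RNA started upstream of the RefSeq start of the gene on the other strand, as at a divergent promoter. A window of 250 bases before that start and 50 after it made this order the likelier one. By the gene spans used for position, some of the 17, such as ID2-AS1 at ID2, overlap their gene head-to-head. These windows held 56.7% to 78.3% G or C bases, with a median of 72.3% against 58.3% over all 27305 windows, and a median of 36 CG dinucleotides against 14. Read on both strands, GGGCGG was found in 13 of the 17 windows and in 44.6% of all windows, CCAAT in 3 of 17 and in 35.7%, and TATAAA in 0 of 17 and in 11.95%. All windows include those of genes that these cells did not express, and windows of expressed genes alone were not compared. Whether these traits are particular to the 17 was therefore not tested.

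4 of the 17 windows are printed because their antisense RNAs and genes showed 4 different combinations of change between the groups. Each is written 5′ to 3′ on the strand of the protein-coding gene, and the capitals run from the start of the antisense RNA in GENCODE 29 to the start of the gene in RefSeq. Transcription of the antisense RNA leaves the capitals to the left and that of the gene leaves them to the right.
AL445524.1 and TSNAX, chr1:231528419-231528718, plus strand, 114 bases in capitals: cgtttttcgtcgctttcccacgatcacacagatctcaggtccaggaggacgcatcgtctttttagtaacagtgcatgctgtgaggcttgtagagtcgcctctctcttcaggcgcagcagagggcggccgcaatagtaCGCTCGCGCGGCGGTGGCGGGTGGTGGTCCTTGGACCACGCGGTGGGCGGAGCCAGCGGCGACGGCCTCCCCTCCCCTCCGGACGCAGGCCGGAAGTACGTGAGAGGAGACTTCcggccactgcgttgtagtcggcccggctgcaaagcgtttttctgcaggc
AP003721.4 and PRPF19, chr11:60906536-60906835, minus strand, 205 bases in capitals: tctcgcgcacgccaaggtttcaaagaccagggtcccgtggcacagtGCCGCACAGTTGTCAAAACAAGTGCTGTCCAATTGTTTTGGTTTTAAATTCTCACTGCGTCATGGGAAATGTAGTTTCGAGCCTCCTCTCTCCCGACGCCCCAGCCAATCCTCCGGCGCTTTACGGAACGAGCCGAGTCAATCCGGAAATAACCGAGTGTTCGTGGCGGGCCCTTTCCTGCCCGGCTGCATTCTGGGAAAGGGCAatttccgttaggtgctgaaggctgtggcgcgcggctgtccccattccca
AC006333.2 and WASL, chr7:123748954-123749253, minus strand, 66 bases in capitals: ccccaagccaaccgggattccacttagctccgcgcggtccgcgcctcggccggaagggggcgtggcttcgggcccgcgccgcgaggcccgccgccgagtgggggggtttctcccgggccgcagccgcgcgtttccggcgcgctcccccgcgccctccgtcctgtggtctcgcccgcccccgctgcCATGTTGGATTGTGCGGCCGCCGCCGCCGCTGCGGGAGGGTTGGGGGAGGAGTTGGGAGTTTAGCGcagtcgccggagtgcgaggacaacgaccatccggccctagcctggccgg
RNASEH1-AS1 and RNASEH1, chr2:3558284-3558583, minus strand, 160 bases in capitals: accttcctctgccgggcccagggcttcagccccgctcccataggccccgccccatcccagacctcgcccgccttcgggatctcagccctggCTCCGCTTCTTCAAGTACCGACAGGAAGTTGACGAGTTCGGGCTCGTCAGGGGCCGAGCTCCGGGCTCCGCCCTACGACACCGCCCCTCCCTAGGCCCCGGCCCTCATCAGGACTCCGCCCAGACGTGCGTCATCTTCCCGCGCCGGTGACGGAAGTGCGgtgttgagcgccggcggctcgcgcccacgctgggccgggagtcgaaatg

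In the libraries as a whole, 14955816 to 16244639 reads per library were recovered from the FPKM values. CLGN itself was at 24.1, 21 and 26.1 FPKM in the sh-NC libraries and at 9.48, 8.88 and 8.6 FPKM in the sh-CLGN libraries, a log2 change of -1.31 (SE 0.081, adjusted p = 8.35e-06), so the labels and the target gene went the same way. All 10 hepatocyte markers, albumin and alpha-fetoprotein among them, were at 1 FPKM or more in both groups, with summed levels of 7086 to 7318 FPKM in sh-NC and 7178 to 7642 FPKM in sh-CLGN. Of 8 fibroblast markers 3 reached a mean of 1 FPKM in sh-NC and 6 in sh-CLGN, with sums of 55.3 to 59.5 and 130.2 to 134.8 FPKM, while DCN and THY1 were at or near 0 in both. Of 4 endothelial markers 1 reached that level in each group, with sums of 3.33 to 3.67 and 2.38 to 2.65 FPKM and KDR at 0. The 4 blood markers summed to at most 0.133 FPKM. The part of the fibroblast genes in the antisense changes was not tested. In bulk RNA, fewer cells that make a transcript and less of it per cell cannot be told apart.

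The antisense RNAs were scarce. Their mean over the 6 libraries ran from 1.35 to 44.4 FPKM with a median of 3.03 FPKM. It was under 5 FPKM for 149 of them and at least 10 FPKM for 11. With a median length of 1016.5 bases, they held 0 to 4149 reads per library, and the median antisense RNA averaged 65 reads. Together they took 0.146% to 0.147% of the reads in the sh-NC libraries and 0.197% to 0.200% in the sh-CLGN libraries. The rule sets part of this difference, since 39 met it through sh-CLGN libraries alone and 7 through sh-NC libraries alone. Reads were not stated to be counted by strand, and the library kit is not named as one that marks strand. Reads from bases shared with exons of an opposite-strand gene can therefore not be assigned to either. No exon base was shared by 83 antisense RNAs, while 117 shared some, with a median over the 200 of 5.02% and a highest value of 75.6%, and 8 shared over 50%. Of the same 200, 42 overlapped a gene on their own strand, which could also split reads. Some of these 42 shared opposite-strand exon bases as well.

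The 8 with the highest mean levels were led by FGD5-AS1, a widely expressed RNA at the end of the endothelial gene FGD5. FGD5-AS1 (chr3:14920347-14948424) was at 39.9, 39.1 and 41.7 FPKM in the sh-NC libraries and at 47.6, 48.3 and 50.1 FPKM in the sh-CLGN libraries, with 2854 to 3310 reads per sh-NC library and 4064 to 4149 reads per sh-CLGN library. The groups did not overlap, and FGD5-AS1 rose in sh-CLGN with a log2 change of 0.27 (SE 0.047, adjusted p = 0.00138), while FGD5 itself was below 0.05 FPKM in all 6 libraries. AC099850.3, with 190 to 243 reads in sh-NC, was at 42.4, 51.9 and 39.7 FPKM in the sh-NC libraries and at 27.9, 29.3 and 31.5 FPKM in the sh-CLGN libraries and fell with a log2 change of -0.57 (SE 0.097, adjusted p = 0.0012). Of its exon bases 30.2% lie on exons of the opposite strand. BBOX1-AS1 was at 15.4, 13.6 and 13.2 FPKM in the sh-NC libraries and at 21.5, 22.3 and 20.5 FPKM in the sh-CLGN libraries. It rose with a log2 change of 0.58 (SE 0.067, adjusted p = 0.000169), and BBOX1, the last enzyme of carnitine synthesis, had means of 0.429 FPKM in sh-NC and 1.53 FPKM in sh-CLGN. No p is given for BBOX1, which met the filter of the test through the sh-CLGN libraries alone. In that pair the antisense RNA stood far above its gene, and no exon base of it lies on an opposite-strand exon. AL365181.3 and AL590666.2 both lie at BCAN, the gene of the matrix proteoglycan brevican, and so share a partner. AL365181.3 rose with a log2 change of 0.26 (SE 0.058, adjusted p = 0.0044) and BCAN with one of 0.28 (SE 0.067, adjusted p = 0.00703), whereas AL590666.2, which shares 46.7% of its exon bases, was at 23.1, 18.9 and 13 FPKM in the sh-NC libraries and at 18.4, 17.5 and 23.5 FPKM in the sh-CLGN libraries with overlapping groups.

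AL590666.2 did not pass the test, nor did the remaining 3 of these 8. AP001107.9 was at 41.1, 39.3 and 35 FPKM in the sh-NC libraries and at 38.1, 37 and 37.5 FPKM in the sh-CLGN libraries, a log2 difference of -0.03 (SE 0.064, adjusted p = 0.687) with a 95% interval of -0.18 to 0.12. AL513165.1 was at 46.9, 44.3 and 32.9 FPKM in the sh-NC libraries and at 36.9, 36.3 and 38.8 FPKM in the sh-CLGN libraries, with an adjusted p of 0.373 that became 0.0023 without sh-NC replicate 3, its log2 difference moving from -0.13 to -0.28. AP000759.1 was at 22, 22.6 and 27 FPKM in the sh-NC libraries and at 23.9, 29.5 and 26.2 FPKM in the sh-CLGN libraries, with an adjusted p of 0.216 that became 0.0442 without the same library, at a log2 difference of 0.24. Without that library AL590666.2 turned from 0.13 to -0.08. For these short RNAs with 122 to 287 reads per library, sh-NC replicate 3 lay at one end of its group each time.

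**Figure D1:**
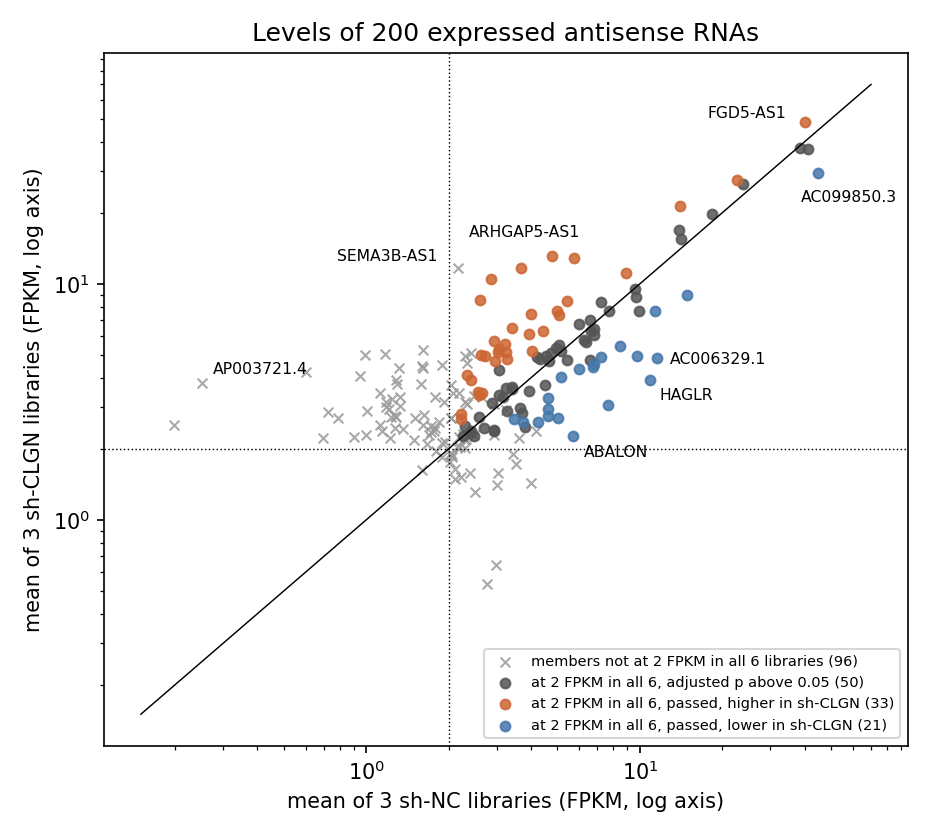
Mean level of the 200 antisense RNAs in 3 sh-NC libraries (horizontal, FPKM, log axis) against 3 sh-CLGN libraries (vertical, FPKM, log axis), with the diagonal of equal levels and dotted lines at 2 FPKM. Of the 104 that reached 2 FPKM in all 6 libraries, 33 passed the test above the diagonal (orange) and 21 below it (blue), and the crosses are the other 96, more of which lie above the diagonal than below it.

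The level that chose the antisense RNAs is also what was compared between the groups, so the sets were kept apart. A gene passed at an adjusted p of at most 0.05 in limma, with Benjamini-Hochberg adjustment over all 13074 tested genes, and was called when its log2 change was also at least 1 in size. At least 2 FPKM in all 6 libraries was reached by 104 of the 200. Another 39 reached it in all sh-CLGN libraries and in no sh-NC library, 7 in all sh-NC libraries and in no sh-CLGN library, and 50 in other combinations. No p is given for these 96, since their level in 1 group brought many of them in. The counts over all 200, 83 passed higher and 32 passed lower, and 21 called higher and 7 called lower, describe the set that the rule made. Of all tested genes 65.8% passed, 26.7% higher and 39% lower, while 6.28% were called, 3.09% higher and 3.19% lower. Removing a trend with GC content from each library gave 102 passed higher and 20 lower. Scaling by TPM, read totals or with the GC trend removed gave 43 against 7, 30 against 3 and 29 against 5 called in place of 21 against 7. Quantile normalization went the other way, with 80 passed higher and 35 lower and 17 against 7 called.

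Among the 104 that reached the level everywhere, 33 passed higher in sh-CLGN (31.7%) and 21 lower (20.2%), 5 were called higher and 4 lower, and the median log2 change was 0.07. Of the 9352 genes of any kind at 2 FPKM in all 6 libraries, 21.4% passed higher and 47.1% lower with a median of -0.16. Of the 8747 protein-coding genes among them, 21.2% passed higher and 48.3% lower with a median of -0.17. The 112 long intergenic RNAs at that level were close to the antisense RNAs, with 30.4% higher, 25.9% lower and a median of 0.05. Whether the sets differ was not tested. The groups did not overlap for 55 of the 104 and for 117 of the 200, against 70.2% of all tested genes. Scaling by read totals gave 46 passed higher and 13 lower in place of 33 and 21, and removing the GC trend 49 and 12. Quantile normalization gave 33 and 22, and a fit of the recovered reads with voom 29 and 19. Scaling by read totals moved the median of all tested genes from -0.08 to 0.08 and TPM moved it to 0.03. The GC content of the antisense RNAs was 51.0% at the median and that of tested genes 48.9%. The log2 change ran against GC content with a Spearman correlation of -0.17 over the 200 antisense RNAs and -0.33 over the tested genes, a description over genes that share libraries.

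Per library, 140 to 142 of the 200 reached 2 FPKM in sh-NC, against 173 to 183 in sh-CLGN. That difference is partly set by the rule, which used the same level to choose them. Over all 5583 antisense genes, which were not chosen by level, 152 to 160 reached it in sh-NC, against 216 to 223 in sh-CLGN. Long intergenic RNAs moved likewise, from 169 to 175 genes up to 222 to 238, and protein-coding genes from 9348 to 9391 up to 9475 to 9531. In all 3 classes the groups did not overlap.

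The antisense RNAs that rose most among the 104 were AC090515.4, AC022075.1, AL445524.1, ARHGAP5-AS1 and AC093673.1, the 5 called higher. AC022075.1 (chr12:10363769-10398506), in the cluster of natural killer cell receptor genes, was at 4.18, 3.19 and 3.68 FPKM in the sh-NC libraries and at 11.7, 11.7 and 11.5 FPKM in the sh-CLGN libraries. This is 3.16-fold more by the mean FPKM, with 132 to 165 reads per sh-NC library and 524 to 564 reads per sh-CLGN library, and a log2 change of 1.44 (SE 0.080, adjusted p = 5.69e-06). Its partner KLRC4-KLRK1 was under 0.5 FPKM in all libraries, with 0 to 1 reads in sh-NC against 13 to 17 in sh-CLGN, at least 4.34-fold higher against a floor of 3 reads per library. ARHGAP5-AS1 was at 5.16, 4.15 and 5 FPKM in the sh-NC libraries and at 13, 11.7 and 14.7 FPKM in the sh-CLGN libraries, a log2 change of 1.29 (SE 0.098, adjusted p = 2.04e-05). Its head-to-head partner ARHGAP5 rose, with means of 42.6 FPKM in sh-NC and 71.3 FPKM in sh-CLGN, a log2 change of 0.74 (SE 0.092, adjusted p = 0.00024). Its antisense RNA rose more than the gene, with a change of their log2 ratio of 0.55 (SE 0.13, adjusted p = 0.0109). AC090515.4 was at 2.23, 2.44 and 3.88 FPKM in the sh-NC libraries and at 11.1, 7.46 and 12.9 FPKM in the sh-CLGN libraries, a log2 change of 1.57 (SE 0.21, adjusted p = 0.000332). Its reads were few, 14 to 27 reads per sh-NC library and 55 to 94 reads per sh-CLGN library, and it shares 40.7% of its exon bases with opposite-strand exons. Its partner MINDY2, the gene of a deubiquitinase, had a log2 difference of -0.08 (SE 0.074, adjusted p = 0.354) and the ratio changed by 1.66 (SE 0.24, adjusted p = 0.00152). AL445524.1, whose shared promoter with TSNAX is printed above, was at 2.18, 2.82 and 2.85 FPKM in the sh-NC libraries and at 9.35, 7.95 and 8.43 FPKM in the sh-CLGN libraries, a log2 change of 1.41 (SE 0.095, adjusted p = 1.18e-05). TSNAX, the gene of a partner of the RNA-binding protein translin, was at 4.39, 4.4 and 5.18 FPKM in the sh-NC libraries and at 5.4, 5.53 and 4.9 FPKM in the sh-CLGN libraries, with overlapping groups and a 95% interval of its log2 difference of -0.03 to 0.33. AC093673.1 rose, with means of 5.73 FPKM in sh-NC and 12.9 FPKM in sh-CLGN, a log2 change of 1.05 (SE 0.082, adjusted p = 2.38e-05). Its neighbour ZYX, the gene of the adhesion protein zyxin, fell, with means of 43.4 FPKM in sh-NC and 23 FPKM in sh-CLGN, a log2 change of -0.88 (SE 0.098, adjusted p = 0.000133).

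Called lower among the 104 were the 4 RNAs HAGLR, AC006329.1, AP001542.3 and ABALON. HAGLR (chr2:176164051-176188958), an RNA of the HOXD gene cluster, was at 11.3, 10.7 and 10.5 FPKM in the sh-NC libraries and at 3.54, 4.14 and 4.1 FPKM in the sh-CLGN libraries, a 2.76-fold lower mean with 800 to 834 reads per sh-NC library and 307 to 347 reads per sh-CLGN library. Its log2 change was -1.27 (SE 0.067, adjusted p = 4.74e-06), and HOXD3 on the other strand was at or below 0.182 FPKM throughout. AC006329.1 was at 12, 11.4 and 11.3 FPKM in the sh-NC libraries and at 4.51, 6.06 and 4.04 FPKM in the sh-CLGN libraries, a log2 change of -1.11 (SE 0.12, adjusted p = 9.47e-05). AP001542.3 was at 6.53, 8.32 and 8.09 FPKM in the sh-NC libraries and at 3.24, 3.59 and 2.35 FPKM in the sh-CLGN libraries, a log2 change of -1.10 (SE 0.13, adjusted p = 0.00019). It held 48 to 66 reads per sh-NC library and 20 to 31 per sh-CLGN library. Neither of the last 2 has an opposite-strand gene nearby by the rule used. ABALON (chr20:31721507-31723409) lies inside BCL2L1, the gene of the anti-apoptotic protein BCL-XL, and 74.8% of its exon bases lie on exons of the opposite strand. ABALON was at 6.03, 5.11 and 6.01 FPKM in the sh-NC libraries and at 2.26, 2.31 and 2.25 FPKM in the sh-CLGN libraries, a log2 change of -1.03 (SE 0.074, adjusted p = 1.57e-05). BCL2L1 was at 92.4, 87.1 and 78.9 FPKM in the sh-NC libraries and at 38, 36.2 and 38.2 FPKM in the sh-CLGN libraries, a log2 change of -1.18 (SE 0.064, adjusted p = 5.2e-06). On the log2 scale the ratio of the pair changed by 0.14 (SE 0.13, adjusted p = 0.405), so a difference between both falls was not detected. With most exon bases shared, the reads cannot be assigned to one of them. Just below the call stood AC027307.2, inside APC2, at 9.68, 11.3 and 8.3 FPKM in the sh-NC libraries and at 4.72, 4.82 and 5.23 FPKM in the sh-CLGN libraries, a log2 change of -0.85 (SE 0.10, adjusted p = 0.000174). AC027307.2 shares 42.9% of its exon bases with opposite-strand exons. APC2, which did not reach the filter of the test, had means of 1.08 FPKM in sh-NC and 0.664 FPKM in sh-CLGN.

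**Figure D2:**
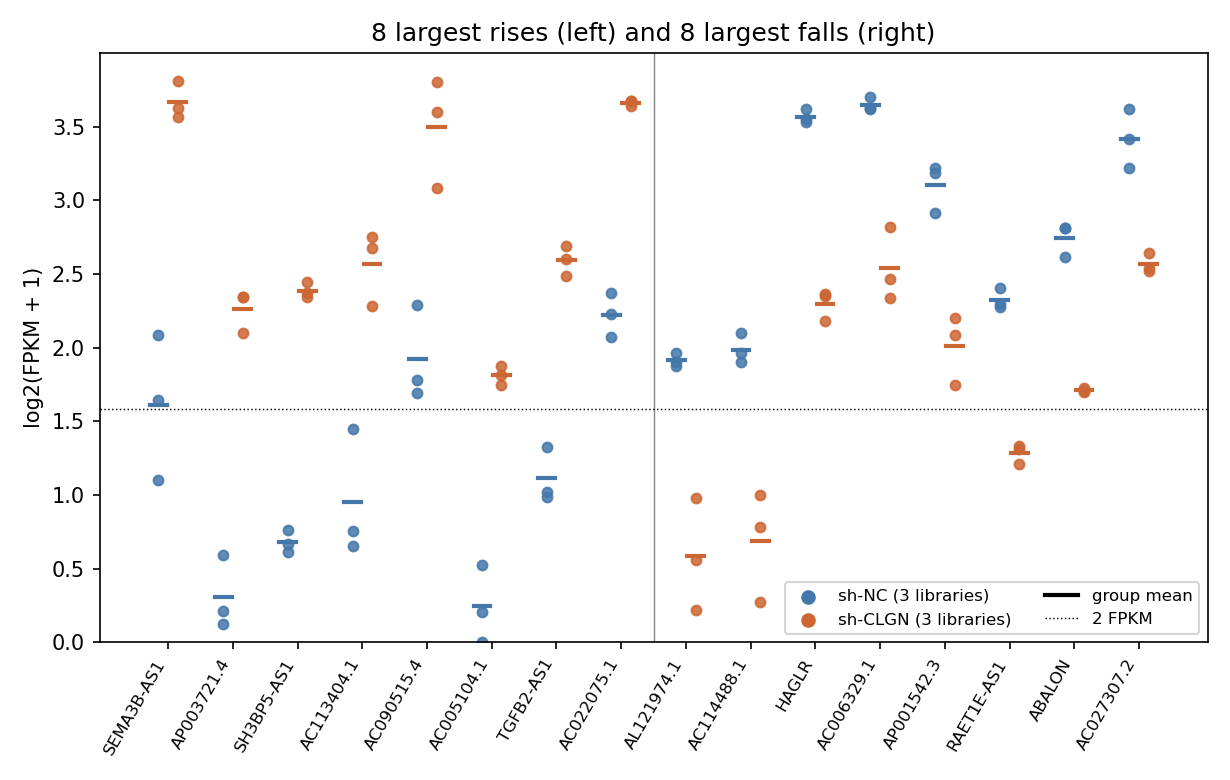
Level of the 8 antisense RNAs with the largest rises and the 8 with the largest falls, as log2(FPKM + 1), in each of 3 sh-NC and 3 sh-CLGN libraries, with bars at the group means and a dotted line at 2 FPKM. The groups are separate for all 16 because the choice required it, and in 5 of the rises all sh-NC libraries lie under the dotted line.

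Of the remaining members of that choice, 6 of the 8 rises and 3 of the 8 falls belong to the 96 without a p, and their values describe them. SEMA3B-AS1 was at 2.12, 3.24 and 1.15 FPKM in the sh-NC libraries and at 10.8, 11.4 and 13 FPKM in the sh-CLGN libraries, a log2 difference of 2.06 (SE 0.22). The gene next to it, SEMA3B, starts 187 bases away on the other strand and encodes a secreted semaphorin that guides axons and restrains tumour cell growth. SEMA3B was chosen by position and not by level, and it was at 1.99, 1.96 and 1.38 FPKM in the sh-NC libraries and at 10.5, 10.9 and 11.4 FPKM in the sh-CLGN libraries, a log2 change of 2.11 (SE 0.097, adjusted p = 2.63e-06). TGFB2-AS1 was at 1.03, 0.984 and 1.51 FPKM in the sh-NC libraries and at 5.08, 4.6 and 5.45 FPKM in the sh-CLGN libraries, a log2 difference of 1.48 (SE 0.11). TGFB2, a ligand of the transforming growth factor beta family that starts 557 bases away, was at 2.8, 3.22 and 3.86 FPKM in the sh-NC libraries and at 7.46, 7.31 and 7.59 FPKM in the sh-CLGN libraries, a log2 change of 0.98 (SE 0.091, adjusted p = 5.24e-05). In both neighbour pairs the antisense RNA and the gene were higher in sh-CLGN. AC005104.1 held 0 to 3 reads in the sh-NC libraries and 17 to 20 in the sh-CLGN libraries, which is at least 5.42-fold higher against a floor of 3 reads per library. It lies inside SEPT2, the gene of a cytoskeletal GTPase, which rose, with means of 18.1 FPKM in sh-NC and 46.8 FPKM in sh-CLGN, a log2 change of 1.33 (SE 0.048, adjusted p = 1.32e-06). AP003721.4, whose promoter with PRPF19 is printed above, was at 0.0885, 0.507 and 0.16 FPKM in the sh-NC libraries and at 4.08, 4.07 and 3.29 FPKM in the sh-CLGN libraries, with 1 to 6 reads against 43 to 56. PRPF19, the gene of a ubiquitin ligase of the spliceosome, went the other way, at 271, 258 and 239.7 FPKM in the sh-NC libraries and at 156, 153 and 160.2 FPKM in the sh-CLGN libraries, a log2 change of -0.71 (SE 0.056, adjusted p = 2.56e-05). SH3BP5-AS1 was at 0.588, 0.526 and 0.699 FPKM in the sh-NC libraries and at 4.16, 4.44 and 4.08 FPKM in the sh-CLGN libraries with 44 to 62 reads against 378 to 417, and SH3BP5 had means of 0.214 FPKM in sh-NC and 0.583 FPKM in sh-CLGN and did not reach the filter of the test. AC113404.1, inside the synaptic vesicle gene SV2C, had means of 0.991 FPKM in sh-NC and 5 FPKM in sh-CLGN. Among the falls, AL121974.1 had means of 2.77 FPKM in sh-NC and 0.535 FPKM in sh-CLGN and AC114488.1 of 2.97 FPKM in sh-NC and 0.643 FPKM in sh-CLGN, from 1 to 27 reads per library. RAET1E-AS1 had means of 4.02 FPKM in sh-NC and 1.44 FPKM in sh-CLGN, and a second row of the same symbol that overlaps it was at 0 in all libraries.

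By position relative to the opposite strand, the counts over all 200 describe classes that also hold RNAs brought in by their level in sh-CLGN. Of the 24 next to a start-to-start neighbour, without overlap, 14 passed higher and 1 lower, 7 were called higher and 0 lower, and the median log2 change was 0.37, beside 26.7% passed higher and 3.09% called higher over all tested genes. Of the 47 head-to-head antisense RNAs, which overlap their partner at both starts, 24 passed higher and 7 lower with a median of 0.29. The 59 that lie inside their partner had 23 higher and 14 lower with a median of 0.11. The 45 tail-to-tail ones had 17 and 6 with a median of 0.08, and the 10 that enclose their partner 3 and 1 with 0.09. The 15 without overlap or neighbour had 2 higher and 3 lower with a median of -0.13, which turned to 0.06 under scaling by read totals and with the GC trend removed, whereas the other 5 medians stayed above 0 in every alternative run.

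Within the 104, the neighbour class had 6 of 11 passed higher, 1 lower, 2 called higher and a median of 0.37. The head-to-head class had 8 of 23 higher and 5 lower with a median of 0.11. The class inside a partner had 6 of 25 higher and 10 lower with a median of -0.16, so its median over all 59 and its median over the 25 had different signs. The tail-to-tail class had 10 of 28 higher and 3 lower with a median of 0.09, the enclosing class 2 of 7 and 0 with 0.09, and the class without either 1 of 10 and 2 with -0.14. Differences between the classes were not tested. By exon sharing, the 83 without a shared exon base had a median of 0.13 with 30 higher and 13 lower, and the 117 with shared bases a median of 0.19 with 53 and 19.

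**Figure D3:**
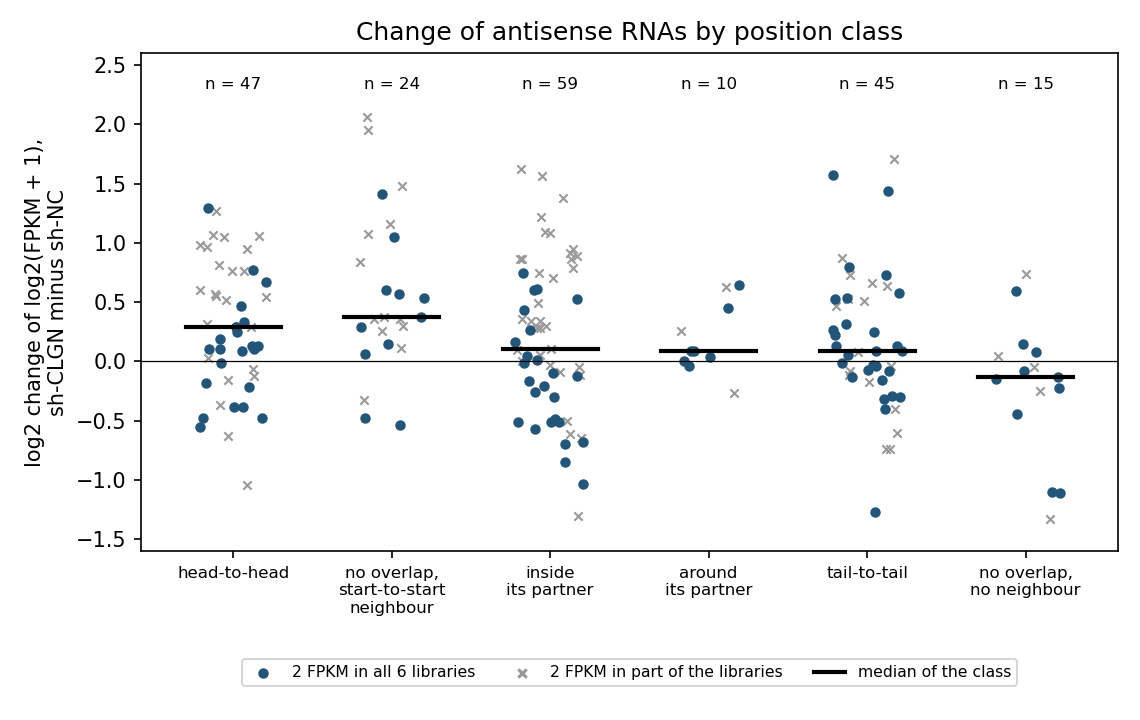
Log2 change of each antisense RNA (vertical, sh-CLGN minus sh-NC on log2(FPKM + 1)) by its position relative to opposite-strand genes, with a bar at the median of each class, dots for those at 2 FPKM in all 6 libraries and crosses for the others. The medians run from 0.37 next to a start-to-start neighbour to -0.13 without overlap or neighbour, and every class holds values on both sides of 0.

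The genes of the printed promoter windows were chosen after their values were seen. WASL, the gene of an actin-nucleation factor, rose with a log2 change of 0.57 (SE 0.067, adjusted p = 0.000174) where its upstream AC006333.2 had means of 0.722 FPKM in sh-NC and 2.86 FPKM in sh-CLGN. RNASEH1, which encodes the enzyme that cuts RNA in RNA-DNA hybrids, was at 11.9, 13.7 and 13 FPKM in the sh-NC libraries and at 6.13, 6.35 and 5.4 FPKM in the sh-CLGN libraries, a log2 change of -0.99 (SE 0.075, adjusted p = 1.96e-05). RNASEH1-AS1 was at 6.47, 5.74 and 5.73 FPKM in the sh-NC libraries and at 3.92, 5.06 and 4.12 FPKM in the sh-CLGN libraries and fell less, with a log2 change of -0.38 (SE 0.092, adjusted p = 0.00662) and a change of the ratio of 0.61 (SE 0.14, adjusted p = 0.00877). With TSNAX and PRPF19 these are the 4 windows printed above, in which both were higher at WASL, both lower at RNASEH1, the values went apart at PRPF19, and the antisense RNA alone passed at TSNAX.

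Among the 120 partners that passed the filter, 33 passed higher (27.5%) and 52 lower (43.3%), against 26.7% and 39% of all tested genes. Called were 3 higher (2.5%) and 4 lower (3.33%), against 3.09% and 3.19%. The median log2 change was -0.08, and these shares and the median lay close to those of all tested genes. The split depended on scaling, with 41 against 40 under TPM, 48 against 41 under quantile normalization, 50 against 35 under read totals and 43 against 41 with the GC trend removed. Of the 113 partners at 1 FPKM in all 6 libraries, 29 passed higher and 52 lower. Of 23 tested neighbours 6 passed higher (26.1%) and 11 lower (47.8%). The other 36 partners and 1 neighbour were below the filter.

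Side by side, 124 antisense RNAs had a tested partner, 10 of all 200 sharing theirs with another antisense RNA. Per length, the antisense RNA stood above its partner in 21 of the 124 pairs and below it in the others. Over the 124 pairs the log2 changes had a Pearson correlation of 0.46 and a Spearman correlation of 0.42, given as a description because the pairs share libraries and, for many, reads. The Spearman correlation was 0.50 for the 92 pairs with shared exon bases and 0.23 for the 32 without. By class it was 0.52 over 43 head-to-head pairs, 0.40 over 34 tail-to-tail pairs, 0.31 over 43 pairs with the antisense RNA inside and 0.22 over 23 pairs with a neighbour. Both passed in 55 pairs. They were both higher in 23 and both lower in 16, while the antisense RNA was higher and the partner lower in 15, and the reverse held in 1. Many of these antisense RNAs met the rule through sh-CLGN. In the 61 pairs whose antisense RNA was at 2 FPKM in all 6 libraries, both passed in 24, with 9 both higher, 11 both lower, 4 with the antisense RNA higher and the partner lower and 0 the reverse. Over all 124, in 18 pairs the antisense RNA alone passed, in 34 the partner alone and in 17 neither. Of the 23 neighbour pairs both passed in 12, with 4 both higher, 1 both lower and 7 with the antisense RNA higher and the gene lower, and within the 11 whose antisense RNA was at 2 FPKM in all 6 libraries these were 0, 1 and 4.

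**Figure D4:**
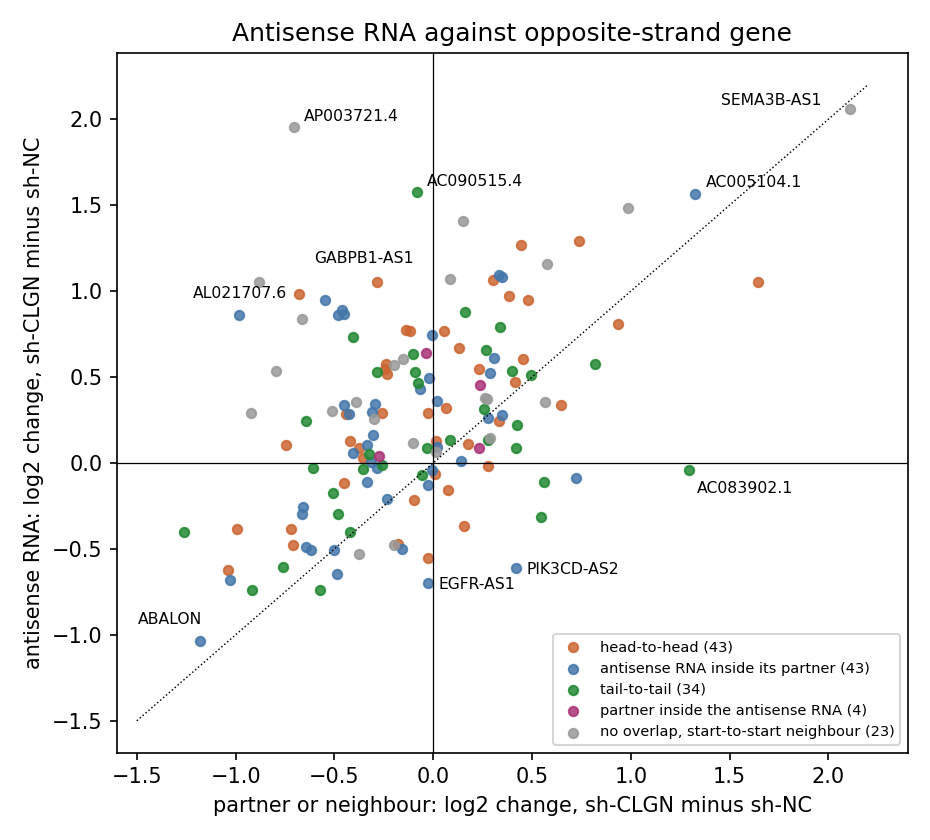
Log2 change of the antisense RNA (vertical) against that of its partner or neighbour (horizontal), sh-CLGN minus sh-NC on log2(FPKM + 1), for 124 pairs with a partner and 23 with a neighbour, coloured by position class, with a dotted line of equal change. The upper left quadrant, antisense RNA higher and gene lower, holds many points, among them AP003721.4 and AL021707.6, and the lower right few, among them PIK3CD-AS2.

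Whether an antisense RNA and its partner changed by different amounts was tested on the log2 ratio of both in each library. The test covered all 320 antisense-partner pairs of the table that passed the filter, of which 42.2% passed higher and 5% lower. Of the 124 pairs 45 passed toward the antisense RNA in sh-CLGN, 7 toward the partner, and 72 did not pass. Many of these antisense RNAs met the rule through sh-CLGN, which favours a rise of the ratio. With the antisense RNA at 2 FPKM in all 6 libraries, 61 pairs were left. Of these 18 passed toward the antisense RNA, 2 toward the partner, and 41 did not pass. For the pairs whose antisense RNA was at 2 FPKM in all 6 libraries the test can be read with its p. AC139887.2 rose while PCGF3, the gene of a Polycomb ring-finger protein, fell. The antisense RNA was at 2.5, 2.52 and 2.83 FPKM in the sh-NC libraries and at 4.72, 5.11 and 5.19 FPKM in the sh-CLGN libraries, a log2 change of 0.73 (SE 0.069, adjusted p = 5.7e-05), PCGF3 had a log2 change of -0.41 (SE 0.049, adjusted p = 0.000196), and the ratio changed by 1.14 (SE 0.11, adjusted p = 0.000506). AC139887.2 shares 30.2% of its exon bases with opposite-strand exons and overlaps AC139887.1 on its own strand, so some of its reads cannot be assigned. A fall of the ratio was seen where the antisense RNA fell alone. EGFR-AS1, inside the gene of the epidermal growth factor receptor, was at 4.83, 5.22 and 5.02 FPKM in the sh-NC libraries and at 2.9, 2.67 and 2.56 FPKM in the sh-CLGN libraries, a log2 change of -0.70 (SE 0.066, adjusted p = 5.62e-05). EGFR was at 23.1, 25.4 and 26.7 FPKM in the sh-NC libraries and at 23.1, 24.9 and 25.9 FPKM in the sh-CLGN libraries, with overlapping groups and a 95% interval of its log2 difference of -0.18 to 0.13, and the ratio changed by -0.68 (SE 0.13, adjusted p = 0.00342). EGFR-AS1 was chosen after its values were seen.

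In other pairs the test was passed by the gene or by the antisense RNA alone. SLC29A2, which encodes a nucleoside transporter, was at 73.3, 71.3 and 62.6 FPKM in the sh-NC libraries and at 45, 43.6 and 46 FPKM in the sh-CLGN libraries and fell with a log2 change of -0.61 (SE 0.066, adjusted p = 0.00011), while its abundant antisense RNA AP001107.9 had the difference and interval given above. Their ratio changed by 0.58 (SE 0.11, adjusted p = 0.0033). That small difference of the antisense RNA turned from -0.03 to 0.25 under quantile normalization, 0.20 with the GC trend removed, 0.16 under read totals and 0.09 under TPM. AP001107.9 passed as higher under the first 3 of these, with adjusted p of 0.00437, 0.00455 and 0.0447 in limma. CTBP1, the gene of a transcriptional corepressor, fell with a log2 change of -0.75 (SE 0.070, adjusted p = 5.53e-05) beside a difference of 0.10 (SE 0.065, adjusted p = 0.192) in CTBP1-DT. THUMPD3-AS1 rose with a log2 change of 0.64 (SE 0.060, adjusted p = 5.62e-05) around THUMPD3, which had a difference of -0.04 (SE 0.050, adjusted p = 0.526) and a 95% interval of -0.15 to 0.08. The ratio changed by 0.85 (SE 0.11, adjusted p = 0.00152) in the first of these pairs and by 0.68 (SE 0.11, adjusted p = 0.00193) in the second, both chosen after their values were seen. THUMPD3-AS1 also overlaps SRGAP3 and AC026191.1 on its own strand. MTTP, the protein that loads lipid onto apolipoprotein B in hepatocytes, was at 31.8, 33.5 and 38.6 FPKM in the sh-NC libraries and at 84.3, 86.7 and 86.9 FPKM in the sh-CLGN libraries, a log2 change of 1.29 (SE 0.071, adjusted p = 5.43e-06). AC083902.1, which runs into its end, was at 2.2, 2.29 and 2.52 FPKM in the sh-NC libraries and at 1.81, 2.55 and 2.42 FPKM in the sh-CLGN libraries, from 11 to 15 reads per library, with overlapping groups and a 95% interval of its log2 difference of -0.28 to 0.20.

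At IGF2 the gene fell and the antisense RNA did not pass the test, and the difference between them was not tested. With the GC trend removed, however, IGF2-AS passed as higher, at 0.29 with an adjusted p of 0.00496 in limma. The partner of IGF2-AS by the rule was a long IGF2 row without reads, and the other IGF2 row (ENSG00000167244), which also overlaps, was at 21.5, 21.9 and 13 FPKM in the sh-NC libraries and at 5.22, 6.48 and 9.06 FPKM in the sh-CLGN libraries. This growth factor gene fell with a log2 change of -1.31 (SE 0.23, adjusted p = 0.00126). IGF2-AS was at 2.45, 2.77 and 2.03 FPKM in the sh-NC libraries and at 2.36, 2.36 and 2.42 FPKM in the sh-CLGN libraries, a log2 difference of -0.01 (SE 0.092, adjusted p = 0.937) with a 95% interval of -0.22 to 0.20. Over the 50 of the 104 that did not pass, the 95% interval of the log2 difference lay within 0.585 either way for 42. That bound is 1.5-fold in FPKM + 1, and it allows a larger fold in FPKM for low RNAs.

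Of the antisense RNAs known by name, PSMA3-AS1 was at 3.38, 2.92 and 3.45 FPKM in the sh-NC libraries and at 5.4, 4.81 and 5.27 FPKM in the sh-CLGN libraries and rose with a log2 change of 0.54 (SE 0.075, adjusted p = 0.000426). PSMA3, which encodes a proteasome subunit, was at 30.4, 28.3 and 33.1 FPKM in the sh-NC libraries and at 43.3, 41.4 and 37.2 FPKM in the sh-CLGN libraries and rose with a log2 change of 0.40 (SE 0.076, adjusted p = 0.00223). Of the exon bases of PSMA3-AS1 1.3% are shared with opposite-strand exons, but it also overlaps ARMH4 and RNU6-341P on its own strand. A change of the ratio was not detected, at 0.14 (SE 0.12, adjusted p = 0.386). THAP9-AS1 was at 2.49, 2.4 and 2.76 FPKM in the sh-NC libraries and at 3.51, 3.51 and 3.42 FPKM in the sh-CLGN libraries, a log2 change of 0.34 (SE 0.068, adjusted p = 0.00294), and THAP9, a gene derived from a DNA transposase, had means of 0.834 FPKM in sh-NC and 1.87 FPKM in sh-CLGN. THAP9 too met the filter through sh-CLGN alone and has no p here. SEC31A overlaps THAP9-AS1 on the same strand. GABPB1-AS1 was at 1.63, 1.62 and 1.57 FPKM in the sh-NC libraries and at 4.52, 4.42 and 4.31 FPKM in the sh-CLGN libraries from 391 to 418 reads against 1196 to 1316. Its partner GABPB1, a subunit of the ETS-family factor GABP, went lower with a log2 change of -0.29 (SE 0.075, adjusted p = 0.0101), but that adjusted p was 0.0908 under TPM and 0.218 under read totals.

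**Figure D5:**
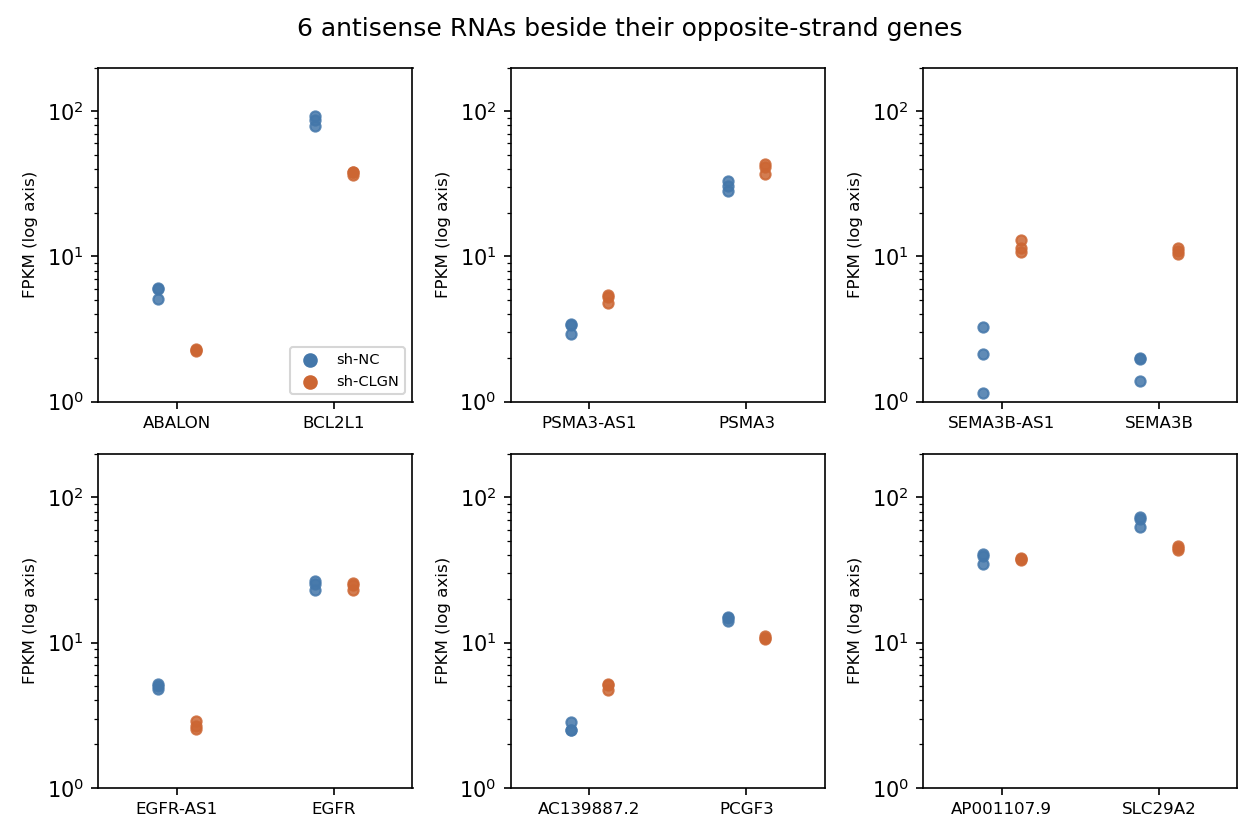
Level in FPKM (log axis) of 6 antisense RNAs and their opposite-strand genes in each of 3 sh-NC and 3 sh-CLGN libraries. ABALON and BCL2L1 are both lower in sh-CLGN, PSMA3-AS1 and PSMA3 as well as SEMA3B-AS1 and SEMA3B are higher, EGFR-AS1 is lower beside overlapping EGFR values, AC139887.2 is higher where PCGF3 is lower, and SLC29A2 is lower beside overlapping AP001107.9 values.

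The antisense RNAs of transcription factor genes, chosen after their values were seen, took several courses. CEBPA-DT, divergent from the gene of the hepatocyte factor C/EBP alpha, was at 5.09, 5.14 and 4.68 FPKM in the sh-NC libraries and at 8.02, 7.33 and 7.64 FPKM in the sh-CLGN libraries and rose with a log2 change of 0.54 (SE 0.061, adjusted p = 0.00015). CEBPA was at 104, 108 and 90.6 FPKM in the sh-NC libraries and at 58.3, 55.3 and 58.9 FPKM in the sh-CLGN libraries and fell with a log2 change of -0.79 (SE 0.070, adjusted p = 4e-05). ID2-AS1 rose with a log2 change of 0.29 (SE 0.10, adjusted p = 0.0363) where ID2, an inhibitor of helix-loop-helix factors, fell with one of -0.26 (SE 0.048, adjusted p = 0.00187). GATA6-AS1 had means of 1.36 FPKM in sh-NC and 2.43 FPKM in sh-CLGN, from 0 sh-NC libraries and 3 sh-CLGN libraries at 2 FPKM, beside a fall of GATA6 of -0.24 (SE 0.048, adjusted p = 0.00259). GATA2-AS1 was at 6.4, 7.77 and 6.17 FPKM in the sh-NC libraries and at 4.57, 4.17 and 4.96 FPKM in the sh-CLGN libraries and fell with GATA2, at log2 changes of -0.48 (SE 0.093, adjusted p = 0.00234) and -0.71 (SE 0.068, adjusted p = 6.14e-05). GATA2-AS1 shares no exon base with GATA2 or another opposite-strand gene. MAFG-DT and its neighbour MAFG, the gene of a small Maf protein, both fell, with log2 changes of -0.53 (SE 0.13, adjusted p = 0.0071) and -0.37 (SE 0.073, adjusted p = 0.00233).

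The 15 pairs with the antisense RNA higher and the partner lower held genes of varied function. By the position of the antisense RNA 6 were head-to-head, 6 had it inside the partner and 3 were tail-to-tail. Of the 15, 13 had shared exon bases, among them 68.1% for AL928654.2 at MTA1 and 48.8% for AP001107.4 at KLC2. Besides AC139887.2, those at 2 FPKM in all 6 libraries were AC074117.1 with EIF2B4, a subunit of the guanine exchange factor of translation initiation, NIFK-AS1 with the nucleolar gene NIFK, and ID2-AS1. AC074117.1 was at 3.42, 2.65 and 2.78 FPKM in the sh-NC libraries and at 4.3, 4.77 and 4.99 FPKM in the sh-CLGN libraries, a log2 change of 0.53 (SE 0.091, adjusted p = 0.00129), and EIF2B4 had one of -0.29 (SE 0.059, adjusted p = 0.00316). NIFK-AS1 was at 2.14, 2.5 and 2.03 FPKM in the sh-NC libraries and at 2.91, 2.58 and 2.94 FPKM in the sh-CLGN libraries, a log2 change of 0.24 (SE 0.084, adjusted p = 0.0323), and NIFK had one of -0.64 (SE 0.067, adjusted p = 9.47e-05). Without shared exon bases stood AL021707.6 inside SUN2, the gene of a nuclear envelope protein, and NADK2-AS1 inside NADK2, a mitochondrial kinase gene. On its own strand AL021707.6 overlaps AL021707.1. AL021707.6 had means of 2.41 FPKM in sh-NC and 5.11 FPKM in sh-CLGN beside a log2 change of -0.98 (SE 0.068, adjusted p = 1.33e-05) in SUN2, and NADK2-AS1 of 1.19 FPKM in sh-NC and 3.15 FPKM in sh-CLGN beside one of -0.55 (SE 0.047, adjusted p = 3.57e-05) in NADK2. AC002467.1, head-to-head with CBLL1 of the RNA methylation machinery, had means of 1.01 FPKM in sh-NC and 2.89 FPKM in sh-CLGN beside a log2 change of -0.68 (SE 0.055, adjusted p = 2.69e-05) in CBLL1. The 1 reverse pair was PIK3CD-AS2 inside PIK3CD, the gene of a phosphoinositide 3-kinase subunit, with means of 4.19 FPKM in sh-NC and 2.38 FPKM in sh-CLGN for the antisense RNA and a log2 change of 0.42 (SE 0.093, adjusted p = 0.00465) for the gene.

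Genes that remove such RNAs in the nucleus were examined as a list. Of 29 tested genes of the nuclear exosome and its adaptors 3 passed higher and 19 lower, 0 were called higher and 1 lower, and the median log2 change was -0.27, beside 26.7% higher and 39% lower over all tested genes. This split depended on scaling, with 7 higher and 13 lower under TPM, 6 and 11 under quantile normalization, 7 and 7 under read totals and 5 and 17 with the GC trend removed. Without sh-NC replicate 3 it was 5 and 20. WDR82, of the restrictor complex, was at 35.2, 35.7 and 35.4 FPKM in the sh-NC libraries and at 14.6, 15.5 and 16.6 FPKM in the sh-CLGN libraries, a log2 change of -1.14 (SE 0.056, adjusted p = 3.34e-06). Of the 9 core subunits EXOSC1 to EXOSC9, 0 passed higher, 5 passed lower and 4 did not pass, and the smallest p were those of EXOSC2 and EXOSC3. These had log2 changes of -0.73 (SE 0.049, adjusted p = 1.17e-05) and -0.53 (SE 0.046, adjusted p = 4e-05). ZC3H3, a zinc finger protein of the polyadenylated RNA pathway, had one of -0.77 (SE 0.068, adjusted p = 4.05e-05). DIS3, a catalytic subunit, rose with a log2 change of 0.53 (SE 0.063, adjusted p = 0.000182). ZFC3H1, the scaffold of PAXT, also rose, at 1.96, 2.08 and 2.32 FPKM in the sh-NC libraries and at 5.13, 4.92 and 4.8 FPKM in the sh-CLGN libraries, a log2 change of 0.93 (SE 0.070, adjusted p = 1.96e-05). What part these genes had in the antisense changes was not tested.

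At the edge of the rule stood RNAs that differed little from each other. Just inside, by their third-highest value, were LINC02588 at 1.74, 1.48 and 2.18 FPKM in sh-NC and 2.31, 2.02 and 1.55 FPKM in sh-CLGN, AC079145.1 at 3.05, 2.03 and 1.79 FPKM in sh-NC and 2.29, 1.92 and 1.83 FPKM in sh-CLGN and RUSC1-AS1 at 1.08, 1.29 and 1.31 FPKM in sh-NC and 2.03, 2.6 and 2.03 FPKM in sh-CLGN. Just outside were AC027796.4 at 1.56, 0.549 and 1.996 FPKM in sh-NC and 2.56, 2.02 and 1.84 FPKM in sh-CLGN, STARD4-AS1 at 0.685, 0.655 and 0.881 FPKM in sh-NC and 2.01, 1.99 and 2.26 FPKM in sh-CLGN and FOXN3-AS1 at 2.46, 1.53 and 1.98 FPKM in sh-NC and 2.74, 1.76 and 1.73 FPKM in sh-CLGN.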

How the data were processed

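Messenger RNA of Hep-G2 cells (3 libraries of sh-NC and 3 of sh-CLGN) had been sequenced after preparation with a NEBNext Ultra kit. What the authors deposited is a table that lists the FPKM of each gene in each library beside its position and length, and these equalled GENCODE 29 on GRCh38 for all 58735 genes. The submitters' processing notes name HISAT2 2.0.5, featureCounts and GRCh38. Strandedness and the authors' test are not given in the sources used here. Groups were taken from the labels and columns were matched by name. No batch was given beyond 1 label common to all libraries, and nothing says that libraries came from separate cultures, so p-values measure only the spread between these samples.

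FPKM times gene length gave whole reads for 100% of values within 0.01 of a read, 14955816 to 16244639 per library. The FPKM implied library sizes of 0.933 to 0.953 times these totals for sh-NC and of 1.07 to 1.08 times for sh-CLGN, so the authors had applied a further scaling. For a gene of 1 kb a single read gave 0.0589 to 0.0717 FPKM. Floors of 3 reads cover counting error only. Between 2 libraries of a group the chi-square per gene was 2.04 to 7.14 and between groups 55.6 to 67.7, so no 2 libraries were alike within sampling noise.

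The 13074 genes that reached 1 FPKM in 3 or more libraries were fitted on log2(FPKM + 1) in limma (version 3.58.1, R 4.3.3) using eBayes with a trend on mean level. Tests were 2-sided with Benjamini-Hochberg adjustment, and differences on this scale understate the change of low genes. The log2 ratio of antisense RNA to partner was fitted in the same way without a trend over 320 pairs. Plots were drawn in matplotlib 3.10.9, and positions and sequences were handled with pandas 2.3.3, numpy 2.4.6 and scipy 1.17.1 under Python 3.11.15. Simulated data with known changes were used to check the fits. Alternatives were a pseudocount of 0.1, other filters, TPM, median-ratio, quantile and read-total scaling, voom on the recovered reads, limma without trend or robust, a lowess GC trend removed with a span of 0.3, the replicate number as a block, each library left out, other levels of the rule, and every overlapping gene as partner. Repeating them on the 104 antisense RNAs at 2 FPKM in all 6 libraries was added after the data were seen.

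The antisense RNAs, gene lists and tests were chosen with earlier results of these data known. Named by rule were the 8 highest levels, 8 largest rises and 8 largest falls with separate groups, their partners or neighbours, the 5 smallest p of the ratio, 3 on each side of the threshold, a list of known antisense RNAs, and 5 genes of the exosome list. The called ones among the 104 and some further genes were named once their values were known.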

Additional observations from a re-analysis of the deposited data

How the results depend on the processing

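Over the alternatives, 200 of 239 counts and main values stayed within a loose tolerance, so smaller moves are among these 200. They include 13 exosome genes passed lower under TPM against 19, and 40 partners passed lower under TPM against 52. Median-ratio factors, left out of this count, were equal for all libraries and so could change no difference. Among the 200 antisense RNAs, 39 were called higher with a pseudocount of 0.1, 43 under TPM and 41 with voom, against 21, while 3 were called lower under read totals against 7, and 20 passed lower with the GC trend removed against 32. The level of the rule set the counts too. At 1 FPKM 203 of 478 passed higher. The share passed higher was 42.5% over all tested antisense genes and 41.5% over the 200. At 5 FPKM 19 of 57 passed higher and 13 lower, with 6 and 4 called. At 2 FPKM in all 6 libraries these were 33, 21, 5 and 4, and without shared exon bases 30, 13, 9 and 4, from fewer RNAs by construction. Partners called higher, 3 at first, numbered 6 with a pseudocount of 0.1 and with voom, 7 under TPM and 5 under quantile normalization. Partners called lower, 4 at first, numbered 2 under TPM, 1 under quantile and read-total scaling, 7 with voom and 0 with the GC trend removed, and 50 passed higher under read totals. Exosome genes passed higher numbered 7 under TPM and read totals, 6 under quantile normalization and 5 with the GC trend removed, and those lower 11 under quantile normalization and 7 under read totals. Ratios passed lower numbered 16 without a filter, 4 at a mean of 2 FPKM, 12 under quantile normalization and 13 with voom, against 7. The cause of these moves was not tested.

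Leaving out 1 library at a time gave -1.39 to -1.24 for CLGN, 74 to 82 antisense RNAs passed higher, 29 to 34 lower, 21 to 24 called higher and 6 to 7 lower, 35 to 45 ratios higher and 6 to 7 lower. It gave 30 to 33 partners passed higher and 47 to 55 lower, with 3 called higher and 3 to 5 lower, and 16 to 20 exosome genes lower and 2 to 5 higher, the 5 without sh-NC replicate 3. Among the 104 antisense RNAs at 2 FPKM in all 6 libraries it gave 27 to 31 passed higher and 19 to 23 lower, with 4 to 5 and 3 to 4 called.

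Differences near 0 turned. AP001107.9 became 0.095 (TPM), 0.25 (quantile), 0.16 (read totals) and 0.20 (GC trend removed), with -0.097 to 0.017 when 1 library was left out. AC083902.1 became 0.059 (TPM) and 0.095 (read totals), with -0.11 to 0.063 when 1 library was left out. IGF2-AS became 0.10 (TPM), 0.13 (read totals) and 0.29 (GC trend removed), with -0.093 to 0.065 when 1 library was left out. AL513165.1 became 0.15 (quantile), 0.062 (read totals) and 0.065 (GC trend removed), MINDY2 became 0.037 (read totals), and AL590666.2 ran from -0.083 to 0.31 when 1 library was left out. AP000759.1 passed under quantile and read-total scaling and with the GC trend removed, AP001107.9 passed as higher under the same 3, AL590666.2 and IGF2-AS with the GC trend removed, and MINDY2 under quantile normalization.

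Replicate numbers did not pair the samples, since deviations of same-numbered libraries from their group means correlated at -0.02, -0.05 and -0.15. With the replicate number as a block, 81 antisense RNAs passed higher and 35 lower, 112 of those that passed being the same, 3 passing only without the block and 4 only with it. The ratio test without a trend was not run separately, as that fit has none. RNAs of a few reads per library limit what could be detected.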
